A study of Rattus norvegicus with 18 samples.

Results

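The comparison described here is the difference between 2 rat tissues in their change from 6 to 18 months of age. For each probe set it takes the 18-month minus 6-month difference in log2 signal in the oculomotor nucleus and subtracts the same difference in the spinal cord. This double difference, called the interaction below, is negative where the cord moved up more, or down less, than the oculomotor nucleus. It rests on 12 of the 18 arrays of the series, chosen by sample title, and all 9482 probe sets that passed a filter on low signal were fitted, for 6958 named genes. The oculomotor nucleus is a small midbrain group of motor neurons that drive eye muscles, whereas motor neurons for the trunk and limbs lie in the spinal cord.

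The 4 groups were oculomotor nucleus at 6 months, oculomotor nucleus at 18 months, spinal cord at 6 months and spinal cord at 18 months, with 3 arrays each. Where the labels name a strain it is F344BN, and they name no treatment or altered gene in any group. Every RNA sample combined tissue from 4 animals, so that the spread between arrays is a spread between pools. Whether the same animals gave both tissues is not in the labels. The other 6 arrays, both tissues at 30 months, share the model's estimate of spread and are used only for values set side by side.

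Resident microglia and incoming macrophages clear myelin and cell debris in the central nervous system. Once loaded with lipid they make lectins, lysosomal enzymes and lipid-handling proteins, and when activated they present peptides on class II molecules of the major histocompatibility complex, which in the rat are called RT1-B and RT1-D. Cholesterol in the brain and cord is made locally, much of it by the oligodendrocytes that build myelin, through a chain of enzymes that starts from acetyl-CoA and is controlled by the transcription factors Srebf1 and Srebf2.

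The tissue labels were checked against marker transcripts, as mean signal ± SD over 3 arrays. Hoxa5, which marks the axial level of the cord, read 886 ± 185 in the cord at 6 months and 60.8 ± 45.9 in the oculomotor samples. Th and Slc6a3, markers of dopamine neurons, read 2563 ± 290.4 and 1426 ± 68.7 in the oculomotor samples at 6 months against 115 ± 23.2 and 156 ± 18 in the cord. Chat, the enzyme of acetylcholine synthesis in motor neurons, was lower in the oculomotor samples (155 ± 43.6) than in the cord (367 ± 61.2), and Phox2a, which defines oculomotor neurons, read 120.0 ± 26.8 and 132 ± 40.8 and did not pass the filter. Slc5a7 and Prph, also markers of motor neurons, read 539 ± 63.3 and 467 ± 48.5 in the oculomotor samples at 6 months. In the cord at that age they read 1142 ± 328.2 and 1211 ± 100.7. The oculomotor samples thus carried transcripts of midbrain dopamine neurons at high level, and Chat, Slc5a7 and Prph below their cord level.

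The cord arrays differed in what else they held. The summed signal of 40 skeletal muscle genes (of 41 written) was 9595 to 25434 in the cord at 6 months, 8468 to 14281 there at 18 months, and 7460 to 7941 over all 6 oculomotor arrays. The 3 cord arrays with the highest sums are replicates 1 and 2 at 6 months and replicate 2 at 18 months, called the muscle-rich arrays below. Atp2a1, the calcium pump of fast muscle, had an interaction of 1.49 (95% interval -0.38 to 3.37), and 6 of 9 measured muscle genes were positive, of which Ckm, muscle creatine kinase (0.40, then -0.98), Acta1 (1.08, then -0.51) and Tnnc2, a troponin (0.64, then -0.018), turned negative without those arrays. Acta1, the actin of skeletal muscle, read 2007, 3630.5 and 253 at 6 months and 276, 1529 and 503 at 18 months in the cord. Ttr, made in quantity by the choroid plexus, read 3719, 164 and 124 at 6 months and 1658, 194 and 601 at 18 months in the oculomotor nucleus, and 16 choroid genes summed to 5141 to 9312 and then 4854 to 6922 there and to 7355 to 8913 and then 7334 to 7787 in the cord. Cord replicate 1 at 6 months and cord replicate 3 at 18 months stood apart from their groups on the first principal component (scores of -12.1 and -13.8, on a component with 27.1% of the variance of deviations from the group means over 18 arrays). The 3' to 5' signal ratio of the hexokinase control, a sign of RNA integrity, was 1.57 to 1.64 and then 1.75 to 1.89 in the oculomotor groups, and 1.93 to 2.12 and then 1.67 to 1.97 in the cord groups. For hexokinase the ages did not overlap in the oculomotor nucleus and overlapped in the cord. For the GAPDH and beta-actin controls they overlapped in both tissues. In the oculomotor nucleus GAPDH was 0.991 to 1.018 and then 1.009 to 1.021, and beta-actin 1.25 to 1.36 and then 1.22 to 1.49. The part of RNA quality in the results was not tested.

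No probe set passed the test of the interaction: 0 of 9482 (0%) had a Benjamini-Hochberg adjusted p under 0.05 in limma, the smallest being 0.20. At an unadjusted p under 0.05 there were 481 (5.07%), of which 211 had the larger upward change in the oculomotor nucleus and 270 in the cord. Counted once per gene, 152 of 6958 genes (2.18%) had an oculomotor change above the cord change at that threshold and 201 (2.89%) had one below it. The median interaction over all named genes was -0.013, with 47.6% above 0. A p that misses the threshold does not show that the tissues changed alike: the 95% interval of the interaction had a median half-width of 0.43, and although 8745 probe sets (92.2%) had intervals within 1 log2 unit of 0, only 3167 (33.4%) lay within 0.5. Without cord replicate 3 at 18 months 5 probe sets passed: Lgals3, Gpnmb, Rtn4, Retreg3 (a membrane-shaping protein of the endoplasmic reticulum) and 1 with no gene name. Without that array and cord replicate 1 at 6 months the count was 7, the same 5 with Mpeg1 and Tsc22d4. The Mpeg1 probe set that passed there had an interaction of -0.96 with all arrays, and a second Mpeg1 probe set had -0.37.

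The 2 sides of the interaction were unequal. In the oculomotor nucleus 0 of 9482 probe sets passed between 6 and 18 months (0%; 321, or 3.39%, at an unadjusted p under 0.05). In the cord 51 rose (0.538%) and 18 fell (0.19%), with 980 (10.3%) at an unadjusted p under 0.05. A change of more than 1 log2 unit, up or down, was seen for 3 probe sets in the oculomotor nucleus, 25 in the cord and 22 in the interaction. The mean within-group SD was 0.13 log2 units in the oculomotor nucleus and 0.19 in the cord, and the model used 1 pooled spread for both. The median SE of a change was thus 0.144 in either tissue. On average this makes cord p-values lower, and oculomotor ones higher, than a separate spread for each tissue would. How far the 2 counts depend on it was not tested. The cord count rests on few arrays: it was 15 without cord replicate 2 at 18 months, 19 without replicate 1 at 18 months, 34 without replicate 2 at 6 months, and 3 without the 3 muscle-rich arrays, which leaves 1 array at 6 months that is assumed to vary like the other groups. Cord p-values given below are from all arrays.

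The oculomotor nucleus leaned the same way as the cord where the cord rose. Of the 51 probe sets that rose in the cord, 42 had a positive oculomotor change (82.4%, against 49.1% of all 9482), with a median of 0.26 there and of 0.82 in the cord. Of the 18 that fell in the cord, 13 had a negative oculomotor change, with medians of -0.091 and -0.63. The 2 tissues were measured on different arrays, and over all 9482 probe sets, which are not independent, their changes correlated with Pearson's r = 0.18 and Spearman's rho = 0.14. For the rises the count was 45 of 51 without the 2 cord arrays that stood apart, and 30 of 43 without cord replicate 3 at 6 months.

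**Figure D1:**
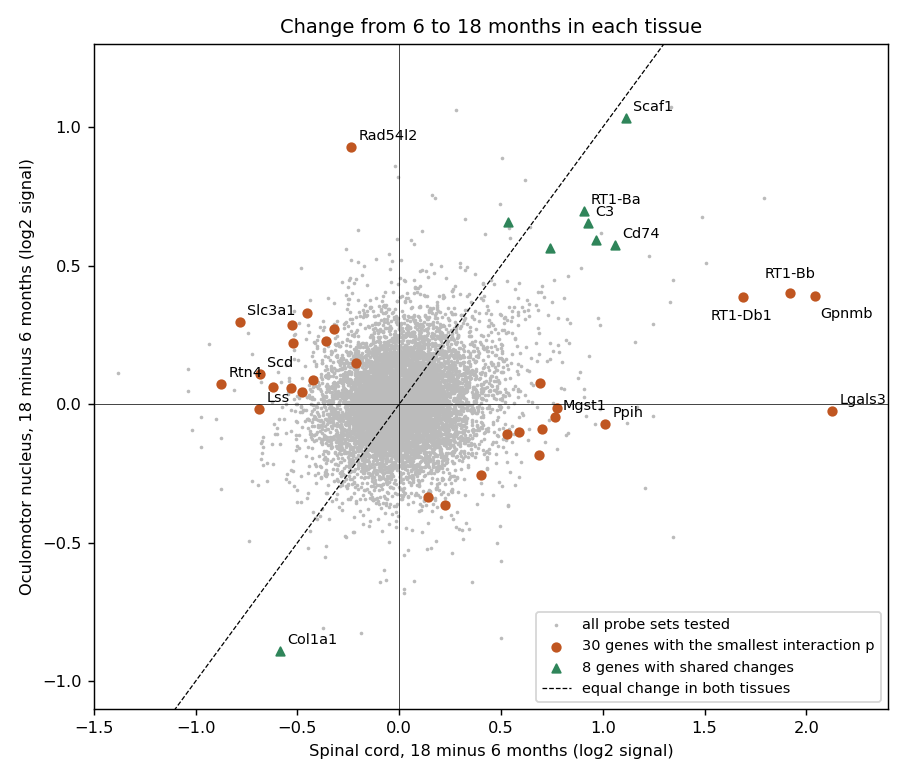
Each point is 1 of the 9482 probe sets, with the change from 6 to 18 months in the spinal cord (x axis, log2 signal) and in the oculomotor nucleus (y axis, log2 signal). The dashed line marks equal change, orange circles are the 30 genes with the smallest interaction p and green triangles the 8 genes with the largest changes of like sign in both tissues; Lgals3 lies at 2.13 on the cord axis and at -0.026 on the oculomotor axis.

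Genes of lipid-laden phagocytes gave the 2 largest interactions among the 183 probe sets named by rule. Lgals3 encodes galectin-3, a lectin of activated microglia and macrophages. Its probe set gave signals of 145, 139 and 139 at 6 months and 116, 179 and 127 at 18 months in the oculomotor nucleus, and 412, 475 and 419 at 6 months and 2161, 2223 and 1427 at 18 months in the cord. The cord arrays at 18 months all lay far above those at 6 months, while the oculomotor arrays of the 2 ages overlapped and stayed below every cord array. Overlap of ages, here and below, describes 3 arrays a group and is no test. The share of all probe sets without overlap was not counted. The cord rose by 2.13 log2 units (adjusted p = 0.00225), the oculomotor change was -0.026, and the interaction was -2.15 (SE 0.38, 95% interval -2.96 to -1.35, adjusted p = 0.20 in limma). It missed the threshold with all arrays and passed it without cord replicate 3 at 18 months (-2.36, adjusted p = 0.0231), with array quality weights (-2.28, adjusted p = 0.00866), and in a fit on the 12 arrays alone (-2.15, adjusted p = 0.00466). Over 29 alternatives it stayed between -2.36 and -2.03, with adjusted p from 0.00466 to 0.968.

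Gpnmb encodes a membrane glycoprotein of phagocytes with loaded lysosomes. Signals of this gene were 221, 191 and 225 at 6 months and 307, 274 and 254 at 18 months in the oculomotor nucleus, and 359, 296 and 302 at 6 months and 1708, 1648 and 795 at 18 months in the cord. Both tissues were higher at 18 months with no overlap, the cord by 2.04 log2 units (adjusted p = 0.0026) and the oculomotor nucleus by 0.39, which did not pass. The interaction was -1.65 (95% interval -2.47 to -0.83, adjusted p = 0.758). Cord replicate 3 at 18 months, 1 of the arrays that stood apart, read less than the other 2, and without it the interaction was -2.01 with an adjusted p of 0.0251 (range over 29 alternatives 0.0251 to 1).

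Of 30 phagocyte genes written, 25 were on the array and 21 passed the filter. Of these, 18 had a negative interaction, where 47.6% of all named genes had a positive one. At an unadjusted p under 0.05, 7 were lower, against 2.89% of all named genes. The others of the 7 were Ctsz, a lysosomal cathepsin (-0.93), Lgals3bp, a secreted partner of galectins (-0.76), Mertk, a receptor for the engulfment of dying cells (-0.75), Grn, progranulin (-0.61), and Plin2, the coat of lipid droplets (-0.56). Grn read 719.7, 798 and 654 and then 857, 782 and 889 on the oculomotor arrays, and 729, 914 and 1027 and then 1862, 1713 and 1221 in the cord, where it rose (adjusted p = 0.00763). The remaining 14 members lay between -0.18 (Ctsl, a cathepsin) and 0.07 (Lgals1, galectin-1), among them the lipid carrier Apoe (-0.06) and the lysosomal cathepsins Ctsb (-0.13) and Ctsd (-0.12), so that the list's median was -0.13, and -0.051 without the 3 muscle-rich arrays. A second probe set of Plin2 gave 0.049. The median change was 0.16 in the cord and -0.016 in the oculomotor nucleus.

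**Figure D2:**
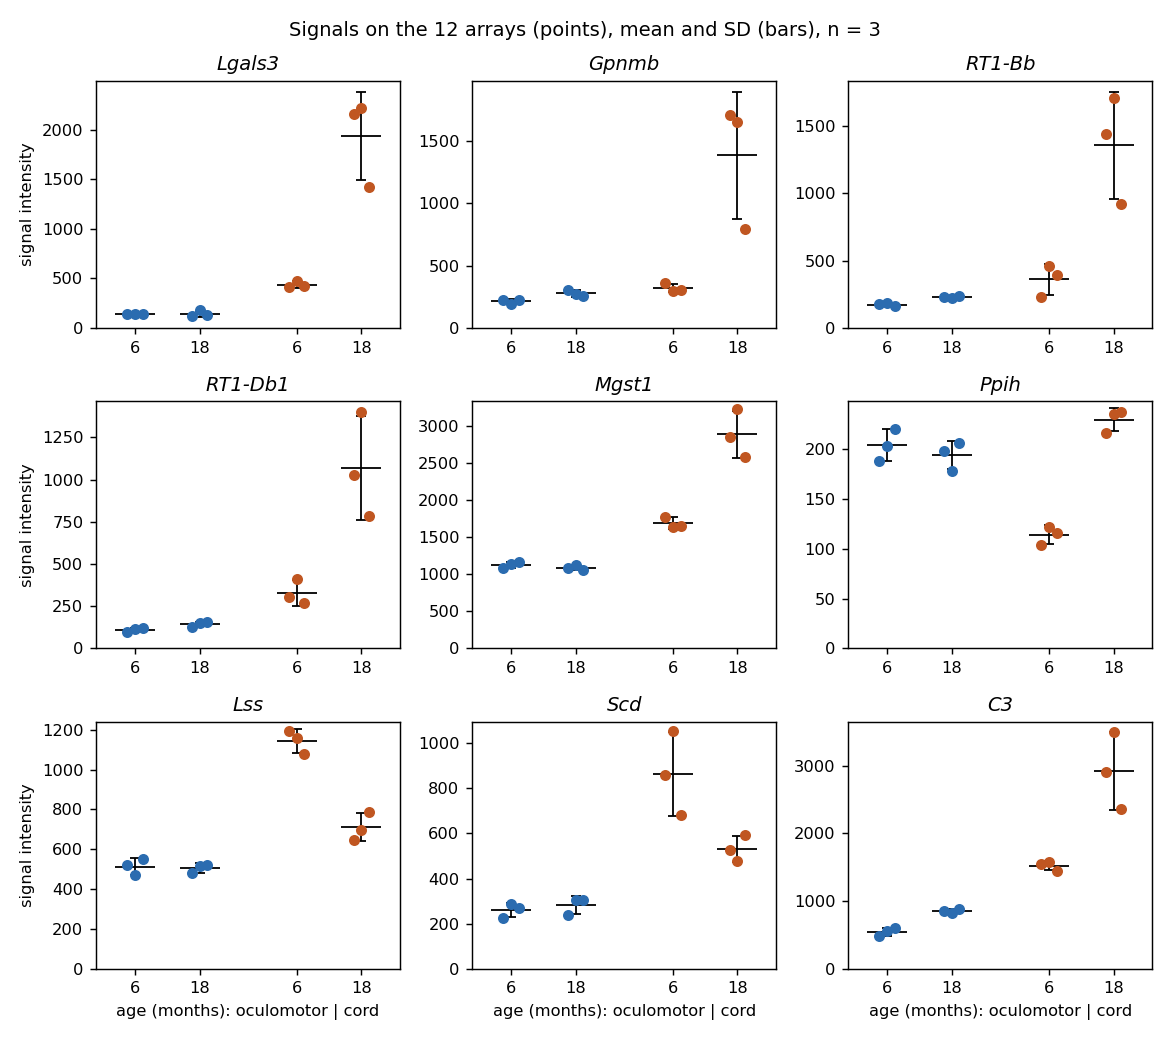
Signal intensity (linear y axis from 0) of 9 genes on the 12 arrays; points are arrays, blue for the oculomotor nucleus and orange for the cord, at 6 and 18 months, and black bars give mean and SD of 3 arrays. Lgals3, Gpnmb and both RT1 genes are highest on the cord arrays at 18 months, Lss and Scd are higher on the cord arrays at 6 than at 18 months, and C3 is higher at 18 months in both tissues.

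The largest class II interactions were those of RT1-Bb and RT1-Db1, though no member passed the adjusted test of the interaction. Of the 7 measured members (8 on the array, 12 written) 4 rose in the cord (Cd74, RT1-Da, RT1-Db1 and RT1-Bb), against 0.538% of all probe sets, and none passed in the oculomotor nucleus. RT1 genes are close relatives that vary between strains, so that their probe sets may share signal. RT1-Bb is the beta chain of the RT1-B molecule. Its signals were 178, 183 and 159.6 at 6 months and 229, 222 and 235 at 18 months in the oculomotor nucleus, and 233, 458 and 394 at 6 months and 1442, 1705 and 923 at 18 months in the cord. No age groups overlapped in either tissue, the cord rose by 1.92 log2 units (adjusted p = 0.0026) and the oculomotor change was 0.40. The interaction was -1.52 (95% interval -2.34 to -0.69, adjusted p = 0.758).

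RT1-Db1, the beta chain of RT1-D, was measured by a probe set that the manufacturer marks as shared between related transcripts. It read 95.4, 118 and 118 at 6 months and 129, 149 and 154 at 18 months in the oculomotor nucleus, and 305, 414 and 266 at 6 months and 1029, 1398 and 785 at 18 months in the cord. The interaction was -1.30 (95% interval -2.06 to -0.55), with a cord rise of 1.69 (adjusted p = 0.00343) beside an oculomotor change of 0.39. RT1-Da, the alpha chain of the same molecule, read 290.5, 315 and 283 and then 458, 411 and 418 on the oculomotor arrays, and 1135, 1320.3 and 1401 and then 2866, 3538 and 2654 on the cord arrays. Its interaction was -0.69 (95% interval -1.27 to -0.12, adjusted p = 0.911), and -0.44 without the 3 muscle-rich arrays.

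Cd74, the invariant chain that escorts class II molecules, read 540.5, 475 and 343 and then 730.5, 596 and 669 in the oculomotor nucleus, and 1580.3, 2350.4 and 1918 and then 4019, 5099 and 3162 in the cord, with no overlap of ages in either. It rose in the cord by 1.06 (adjusted p = 0.0303), with an oculomotor change of 0.57 and an interaction of -0.49 whose interval reached 0 (-1.14 to 0.17). RT1-Ba, the alpha chain of RT1-B, had changes of 0.70 in the oculomotor nucleus, where 1 array at 6 months overlapped the later ones, and 0.91 in the cord (interaction -0.21, -0.98 to 0.56). RT1-DMa and RT1-DMb, which load peptides onto class II molecules, overlapped between ages in both tissues (interactions -0.15 and -0.13). All 7 members thus had a negative interaction, with a median of -0.49, against 47.6% positive among all named genes. At an unadjusted p under 0.05, 3 were lower (2.89% of all named genes). The median was -0.52 without the 2 cord arrays that stood apart, again with 7 of 7 negative, and -0.32 with 6 of 7 negative without the 3 muscle-rich ones, and it was -0.32 without cord replicate 2 at 18 months alone. A tissue array cannot tell more cells of a type from more RNA per cell, here or in the groups that follow.

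Class II promoters were read for the motifs that these genes share. The Y box of class II genes, bound by the factor NF-Y, was searched as CTGATTGG on both strands of the 300 bases around each RefSeq start in GRCr8 (250 before and 50 after), as was CCAAT, of which every match to the first motif holds a copy on the opposite strand. CTGATTGG was present in 4 of the 6 measured class II genes with a promoter entry, RT1-Bb, RT1-Db1, RT1-Da and RT1-Ba, against 3.5% of all 33469 promoters. CCAAT was in 6 of 6, against 37.5%. The stretches below are shown because these 4 genes carry the same letters at a similar place while their interactions ran from -1.52 to -0.21; they are written 5' to 3' along the gene with the motif in capitals, which begins 64, 83, 52 and 46 bases before the start in that order.
RT1-Bb: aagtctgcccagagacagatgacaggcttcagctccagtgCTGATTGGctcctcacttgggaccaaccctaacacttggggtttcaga
RT1-Db1: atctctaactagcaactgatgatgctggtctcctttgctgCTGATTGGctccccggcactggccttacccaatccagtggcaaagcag
RT1-Da: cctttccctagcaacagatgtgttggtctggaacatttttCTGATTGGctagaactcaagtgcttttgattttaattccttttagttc
RT1-Ba: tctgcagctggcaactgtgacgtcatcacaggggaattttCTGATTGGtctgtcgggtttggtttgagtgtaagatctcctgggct

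These lie at chr20:4604135-4604222 (minus strand), chr20:4560198-4560285 (minus strand), chr20:4515323-4515410 (plus strand) and chr20:4576971-4577056 (plus strand) of GRCr8, upstream of the annotated starts. They are the reference sequence, not that of the animals studied. A match is a description of letters and not of binding.

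Markers of microglia and macrophages were higher at 18 months in the cord in all 24 measured members (of 28 on the array and 40 written), with a median change of 0.52 against 0.17 in the oculomotor nucleus. Their interaction was negative in 22 of 24, with a median of -0.36 beside -0.013 for all named genes, and 5 were lower at an unadjusted p under 0.05 (2.89% of all named genes). In the cord Plek, Irf8, Cd53, Mpeg1 and P2ry12 rose by the adjusted test (0.538% of all probe sets). Irf8, a transcription factor that sets the myeloid and microglial programme, was among the 15 lowest interactions of all genes by p. It read 157, 151 and 154 at 6 months and 135, 161 and 139.6 at 18 months in the oculomotor nucleus, and 167, 186 and 138 at 6 months and 266, 278 and 248 at 18 months in the cord. The oculomotor ages overlapped and the cord ages did not, with a cord rise of 0.70 (adjusted p = 0.0479) and an interaction of -0.79 (95% interval -1.26 to -0.32).

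Aif1, also called Iba1 and used to stain microglia, read 177, 170.1 and 158 and then 166, 181 and 177 in the oculomotor nucleus, and 324, 303 and 281 and then 498, 555 and 519 in the cord. Its interaction was -0.74 (95% interval -1.36 to -0.11), but its cord change of 0.79 did not pass (adjusted p = 0.0997). A second Aif1 probe set had the opposite sign, at 0.59 (0.0053 to 1.18). Plek, the platelet and leukocyte protein pleckstrin (-0.89), Cyba, a subunit of the phagocyte NADPH oxidase (-0.64), and Tyrobp, the adaptor of Trem2 (-0.58), were the others under an unadjusted p of 0.05. Tmem119, a marker of resting microglia, had an oculomotor change of 0.50, a cord change of 0.33 and an interaction of 0.16 (95% interval -0.24 to 0.57), and the chemokine receptor Cx3cr1 had -0.11. Without the 2 cord arrays that stood apart the list median was -0.34 (22 of 24 negative), and without the 3 muscle-rich cord arrays it was -0.20 (17 of 24).

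Complement and Fc receptor genes mostly had negative interactions. All 7 complement genes (14 on the array, 22 written) had a negative interaction, with a median of -0.37, a cord median of 0.78 and an oculomotor median of 0.31. Of all named genes, 47.6% had a positive interaction. C1qa, a chain of the molecule that starts the classical pathway, read 912, 868 and 956 and then 1018, 1180.3 and 1199 in the oculomotor nucleus, 1431, 1685 and 1609.6 and then 2575, 3289 and 2329 in the cord, with no overlap of ages in either tissue (interaction -0.47, 95% interval -0.94 to -0.0028, and -0.30 without the muscle-rich arrays). Serping1, the C1 inhibitor, had -0.57 (-1.25 to 0.12), and -0.08 without the muscle-rich arrays; with 1 array left out it lay between -0.88 (cord replicate 3 at 18 months) and -0.33 (cord replicate 1 at 6 months). All 8 Fc receptor and myeloid signalling genes (15 on the array, 22 written) were negative by the probe set with the highest mean, with a median of -0.23, and of -0.13 without cord replicate 2 at 18 months. Sirpa, the receptor for the signal CD47, was the least of these (-0.036), and its second probe set gave 0.32. The lowest was Fcgr2b, the inhibitory receptor for IgG, which rose in the cord from 219.5, 260.0 and 200.0 to 690.0, 753 and 505 (adjusted p = 0.0026) and read 106, 130.2 and 79.4 and then 129.6, 147 and 165 in the oculomotor nucleus (interaction -0.998). The complement median moved to -0.10 without the 3 muscle-rich cord arrays and to -0.58 without cord replicate 3 at 18 months.

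**Figure D3:**
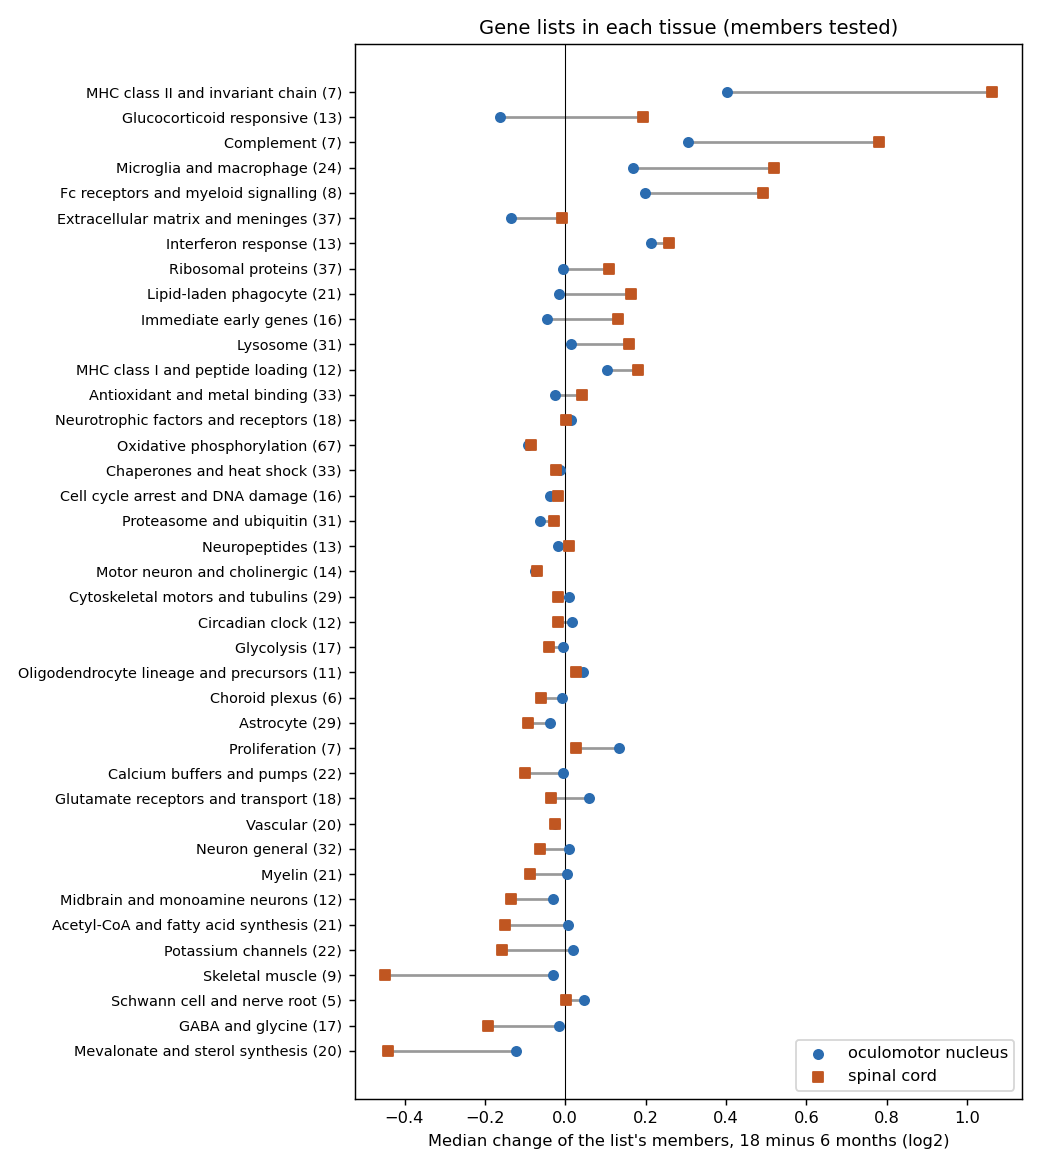
Median change from 6 to 18 months (x axis, log2) of the measured members of each gene list with 5 or more, their number in brackets, in the oculomotor nucleus (blue circles) and the cord (orange squares); lists are ordered by the median interaction. The class II medians are 0.40 and 1.06, and the sterol medians -0.12 and -0.44.

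Sterol synthesis ran the opposite way. In the cord 5 enzymes fell, Lss, Ebp, Acat2, Msmo1 and Sqle (against 0.19% of all probe sets), and none passed in the oculomotor nucleus. Of 27 genes written, 21 were on the array and 20 measured, and 19 of these had a positive interaction, against 47.6% of all named genes. Their median was 0.34, and 7 were higher at an unadjusted p under 0.05 (2.18% of all named genes). The median change was -0.44 in the cord and -0.12 in the oculomotor nucleus. Srebf2 (interaction 0.44), the transcription factor of the pathway, and Scap (0.13) and Insig1 (0.26), which regulate it, had intervals that spanned 0.

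Lss, lanosterol synthase, closes the first sterol ring system. Its signals were 521, 469 and 549.5 at 6 months and 479, 517 and 521 at 18 months in the oculomotor nucleus, and 1192, 1159 and 1076 at 6 months and 648, 697 and 787 at 18 months in the cord. The cord ages did not overlap and the oculomotor ages did. The cord fell by 0.69 log2 units (adjusted p = 0.00548) beside an oculomotor change of -0.019, for an interaction of 0.67 (SE 0.16, 95% interval 0.33 to 1.01, adjusted p = 0.758). Over 29 alternatives it stayed between 0.57 and 0.74.

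Ebp, the sterol isomerase, had the highest interaction of the pathway, 0.92 (95% interval 0.25 to 1.60, adjusted p = 0.911). It read 209, 213 and 226 and then 174, 182 and 262 in the oculomotor nucleus, and 304, 461 and 266 and then 236, 154 and 124 in the cord, where it fell (adjusted p = 0.0462). Acat2, the thiolase that makes acetoacetyl-CoA, read 1087, 1085 and 1089.7 and then 611, 682 and 756 in the cord (adjusted p = 0.0244) and 734, 745 and 728 and then 719.8, 731 and 572 in the oculomotor nucleus. Its interaction was 0.54. Without the muscle-rich arrays the value for Ebp was 0.55.

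Sqle, squalene epoxidase, fell in the cord from 1342, 1503 and 1589.9 to 961, 962 and 946 (adjusted p = 0.0188), and its oculomotor signals also did not overlap, at 1028, 1144 and 1072 and then 986, 929 and 1023 (interaction 0.48). The other members under an unadjusted p of 0.05 were Msmo1, a methylsterol oxidase (0.51), Sc5d, a desaturase (0.48), and Cyp51, the lanosterol demethylase (0.44, and 0.44 for a second probe set, which gave 0.22 without the 3 muscle-rich arrays). Other enzymes had closer values in the 2 tissues. Fdps, farnesyl diphosphate synthase, was lower at 18 months with no overlap in both tissues, by -0.34 and -0.45 (interaction 0.11, 95% interval -0.28 to 0.51), and Tm7sf2, a sterol reductase, had -0.49 and -0.74. The list median was 0.42 with 19 of 20 positive without the 2 cord arrays that stood apart, and 0.31 with 14 of 20 positive without the 3 muscle-rich ones.

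Sterol promoters were read for the same letters and for a sterol regulatory element. Among the 17 measured members with a promoter entry, CTGATTGG was found in 5 (3.5% of all promoters) and CCAAT in 13 (37.5%), while TCACNCCAC, a form of the sterol regulatory element, was in 0 of 17 and in 1.12% of all promoters. No match says only that these letters are not in this window. The stretch of Lss, the pathway gene with the smallest interaction p, lies at chr20:12118268-12118355 (minus strand) of GRCr8 with the motif, in capitals, beginning 85 bases before the start.
Lss: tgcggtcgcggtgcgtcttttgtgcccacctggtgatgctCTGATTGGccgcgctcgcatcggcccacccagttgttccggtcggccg

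Fatty acid genes were split. Of 25 genes written, 23 were on the array and 21 measured, 16 with a positive interaction against 47.6% of all named genes. The median was 0.18, and 0.12 with the muscle score as a covariate, with 5 higher (2.18% of all genes) and 1 lower (2.89%) at an unadjusted p under 0.05. Scd, the desaturase that makes oleate, read 227, 288 and 269.9 and then 237, 306 and 305 on the oculomotor arrays and 861, 1053 and 680.5 and then 526, 476 and 593 on the cord arrays. It fell in the cord (by 0.69, adjusted p = 0.0483), and its interaction was 0.79 (95% interval 0.33 to 1.26). Without the 3 muscle-rich cord arrays its interaction was 0.39.

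Aacs, which makes acetoacetyl-CoA from ketone bodies, read 548, 575 and 413 and then 321, 294 and 381 in the cord (adjusted p = 0.038) and 388, 398 and 412 and then 392, 425 and 433 in the oculomotor nucleus. Its interaction was 0.68 (95% interval 0.28 to 1.08), and 0.30 without the muscle-rich arrays. Acly, ATP citrate lyase, the source of cytosolic acetyl-CoA, did not overlap between ages in either tissue. The oculomotor readings at 18 months lay above those at 6 months (3136, 3051 and 3104, then 3407, 3332 and 3555), and the cord readings below theirs (3913, 4214 and 3938, then 3295, 3729.8 and 3399.5), though neither tissue passed the test (interaction 0.36, 0.13 to 0.59). Acss2, acetyl-CoA synthetase, had 0.40 and Elovl6, an elongase, 0.40.

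Srebf1, the transcription factor of fatty acid genes, had a negative interaction, as did 4 other members of the list, Scd2, Acsl3, Acsl4 and Elovl5 (-0.18 to -0.085). It read 782, 711 and 742 at 6 months and 792, 654 and 932 at 18 months in the oculomotor nucleus, and 788, 821 and 881 at 6 months and 1278, 1449 and 1299.8 at 18 months in the cord. It rose in the cord by 0.69 (adjusted p = 0.00648), and its interaction was -0.62 (95% interval -0.97 to -0.26). A second probe set gave an oculomotor change of 0.18, a cord change of 0.39 and an interaction of -0.21. Fasn, fatty acid synthase, had 0.19 (-0.14 to 0.53).

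**Figure D4:**
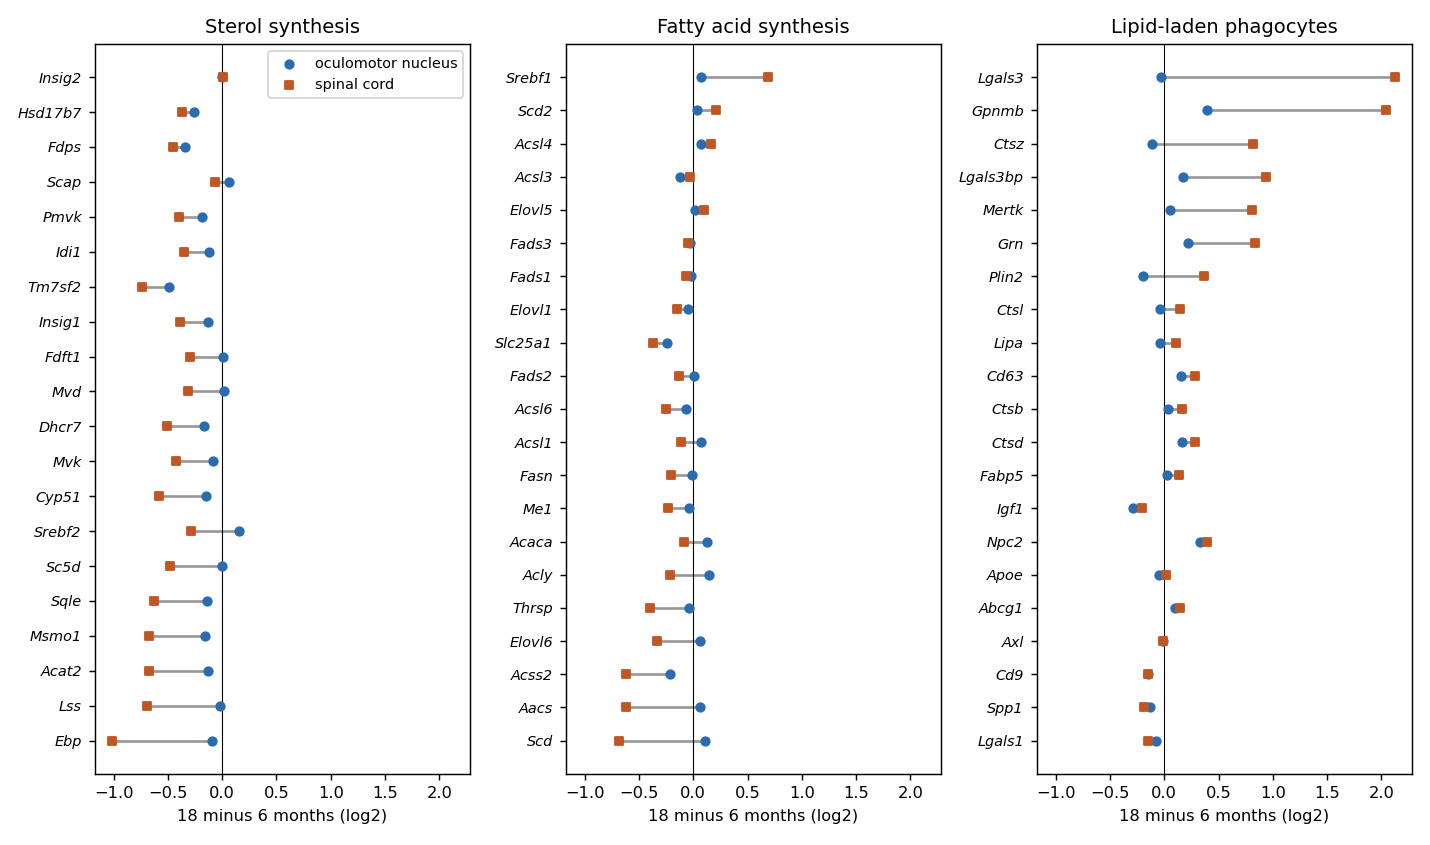
Change from 6 to 18 months (x axis, log2) of every measured member of the sterol, fatty acid and phagocyte lists, with blue circles for the oculomotor nucleus and orange squares for the cord, ordered by interaction. Cord squares lie left of the circles for 19 of 20 sterol genes, and right of them for 18 of 21 phagocyte genes, with Lgals3 and Gpnmb the widest.

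The other genes with the lowest interaction p had diverse roles. Ppih, a prolyl isomerase of the spliceosome, read 189, 204 and 221 and then 198, 178 and 206 in the oculomotor nucleus and 104, 122 and 116 and then 216, 235 and 237 in the cord. The cord started below the oculomotor arrays and ended above them, with a rise of 1.01 (adjusted p = 0.00502) and an interaction of -1.08 (95% interval -1.58 to -0.59, adjusted p = 0.758). Mgst1, a membrane glutathione transferase, read 1087, 1132 and 1159 and then 1083, 1126 and 1059, against 1778, 1639 and 1654 and then 2851, 3220.2 and 2582 in the cord. Its interaction was -0.81 (-1.21 to -0.42), and its cord rise passed (adjusted p = 0.00648).

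Gpx3, the secreted glutathione peroxidase, had overlapping ages in the oculomotor nucleus but not in the cord. Its signals were 1367, 1409.9 and 1571 at 6 months and 1246, 1399 and 1687 at 18 months in the oculomotor nucleus, and 812, 1136 and 970.5 at 6 months and 1858, 1803 and 1346 at 18 months in the cord. The interaction was -0.79 (-1.24 to -0.34) with a cord rise of 0.78 (adjusted p = 0.0192). Of the antioxidant list 22 of 33 measured members had a negative interaction, where 47.6% of all named genes had a positive one. The list's median was -0.069 (-0.15 without cord replicate 3 at 18 months and -0.11 without oculomotor replicate 3 at 18 months or cord replicate 3 at 6 months), and Prdx6 had 0.52. Among genes whose cord change did not pass, Itgb3bp, a centromere protein, had an interaction of -0.87, Cyb561d2, a cytochrome, -0.69, Map3k1, a signalling kinase, -0.63, and Ppil2, a cyclophilin-like protein, -0.66. A second Map3k1 probe set gave -0.21.

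Csnk2b, the regulatory subunit of casein kinase 2, differed from these in that its oculomotor change was the larger. Its oculomotor signals went from 2367, 2364 and 2094 to 1865, 1688 and 1857 without overlap, while the cord signals of 1977, 1745 and 1840.1 and 2098, 2056 and 1967 overlapped (interaction -0.47, -0.74 to -0.21). Mrpl41, a protein of the mitochondrial ribosome, went from 1164, 1143 and 1240.1 to 858, 1014 and 887 in the oculomotor nucleus and from 839, 733 and 896 to 925, 925 and 1023 in the cord (interaction -0.59). Neither change passed in its tissue for either gene. Of the 15 genes with the smallest p on this side, all 15 had a positive cord change and in 13 the cord change was the larger in size. Of the 15 on the other side, all had a negative cord change, larger in 14. These counts describe genes chosen by the same contrast and are no test of it.

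**Figure D5:**
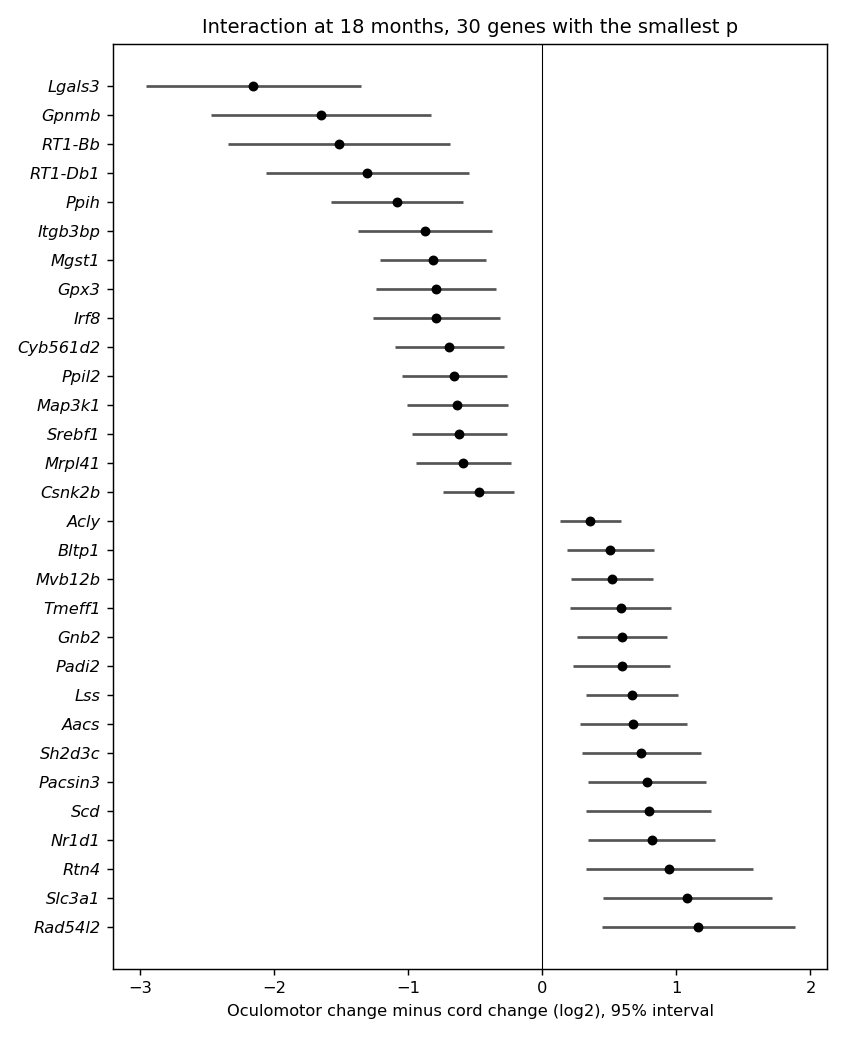
Interaction from 6 to 18 months, oculomotor change minus cord change (x axis, log2), with its 95% interval, for the 15 genes with the smallest p in each direction. The 30 intervals, unadjusted for the number of genes, lie on 1 side of 0, from -2.15 for Lgals3 to 1.16 for Rad54l2, and no gene had an adjusted p under 0.05.

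On the positive side outside lipid synthesis, Slc3a1, a subunit of the cystine transporter, had an interaction of 1.08 (0.45 to 1.71). Its cord signals were 567, 341 and 288 and then 228, 255 and 188, of which the first came from an array that stood apart, and its oculomotor signals 315, 366 and 227 and then 385, 338 and 372 overlapped. Without both arrays that stood apart the value was 0.68. Nr1d1, the clock repressor Rev-erb alpha, went from 303, 314 and 238 to 380.1, 317 and 341 in the oculomotor nucleus and from 386, 413 and 270.4 to 262, 212 and 259 in the cord (interaction 0.82, 0.34 to 1.29). It was the 1 clock gene of 12 measured with an unadjusted p under 0.05, and its value was 0.34 without the muscle-rich arrays.

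Rad54l2, a helicase-like protein, was higher at 18 months in the oculomotor nucleus, where 141, 92.5 and 113 became 171, 240.5 and 246, with overlap in the cord (206, 308 and 174, then 138, 229 and 214). Its interaction was 1.16 (0.44 to 1.88). Gnb2, a G protein beta subunit, fell in the cord (by 0.53, adjusted p = 0.0331; interaction 0.59), but its other probe set gave an interaction of -0.14. Mvb12b, of the endosomal sorting machinery, fell there too (by 0.48, adjusted p = 0.0357; interaction 0.52). Sh2d3c, a signalling adaptor, Bltp1, a lipid transfer protein, and Tmeff1, a membrane protein, had interactions of 0.74, 0.51 and 0.59, the last opposed by a second probe set at -0.14.

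Rtn4, the myelin-associated neurite inhibitor Nogo, gave values that differed by array and by probe set. In the cord it read 4537, 4703 and 3871 at 6 months and 1584, 2087 and 4040.5 at 18 months, against 4012, 4370.1 and 3761 and 3975, 4221 and 4570.4 in the oculomotor nucleus. The interaction was 0.95 (0.33 to 1.57), and 1.33 with an adjusted p of 0.00168 without cord replicate 3 at 18 months (range over 29 alternatives 0.00168 to 1). A second probe set gave -0.032.

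Opposite changes, with unadjusted p under 0.05 in both tissues, were seen for 5 of the 6958 named genes. Of all probe sets, 3.39% were under that threshold in the oculomotor nucleus and 10.3% in the cord. Pacsin3, a membrane-bending protein, went from 341, 371 and 373 to 408, 499 and 459.5 in the oculomotor nucleus and from 801, 896 and 766 to 744, 481 and 599.5 in the cord, with no overlap in either (interaction 0.78, 0.34 to 1.22). Padi2, a peptidylarginine deiminase that citrullinates myelin basic protein, had the same signs, 0.27 and -0.32. The reverse was seen for Gcdh, a mitochondrial enzyme of lysine breakdown (-0.19 in the oculomotor nucleus, 0.23 in the cord), Prkaa1, a catalytic subunit of the energy sensor AMPK (-0.33, 0.32), and Cd59b, an inhibitor of complement (-0.24, 0.21). None of the 5 passed the adjusted test in either tissue or in the interaction.

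Changes in the same direction, by the same threshold in each tissue, were seen for 49 of the 6958 named genes. Of all probe sets, 3.39% were under it in the oculomotor nucleus and 10.3% in the cord. Neither this count nor that of opposite changes was tested. C3, the central complement component, read 486, 555 and 595 and then 857, 826 and 883 in the oculomotor nucleus, and 1541, 1573 and 1447 and then 2912, 3498 and 2358 in the cord. No ages overlapped, and the changes were 0.65 and 0.93, the latter passing with all arrays (adjusted p = 0.0026 in limma). Of the alternatives, only array quality weights let the oculomotor change pass (adjusted p = 0.0112 in limma). The interaction of -0.27 had an interval of -0.66 to 0.12. Scaf1, a splicing-associated protein, had the largest shared change, 1.03 and 1.11 (interaction -0.08, -0.91 to 0.75), from signals of 143, 119 and 192 and 144, 62.4 and 123 at 6 months, where 1 cord reading was under the floor of 66.4.

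Parp9, an interferon-induced protein, had 0.66 and 0.54 (interaction 0.12, -0.37 to 0.61), Gipr, an incretin receptor, 0.56 and 0.74 (-0.18), and Plcb3, a phospholipase, 0.59 and 0.97 (-0.37). The 1 shared decrease among the 8 largest was Col1a1, a chain of collagen I, which read 159, 183 and 250.4 and then 118, 73.7 and 131 in the oculomotor nucleus, and 772, 654 and 779 and then 648, 434 and 414 in the cord. Its changes of -0.89 and -0.58 left an interaction of -0.31 (-0.99 to 0.37), and a second probe set gave 0.13. RT1-Ba and Cd74, described above, complete these 8, and all 8 intervals span 0.

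Several neuronal lists had mostly positive interactions with few single genes to carry them. Potassium channel genes had a positive interaction in 20 of 22 measured members (median 0.18) and GABA and glycine genes in 14 of 17 (median 0.26), against 47.6% of all genes, with 0 and 1 members higher at an unadjusted p under 0.05 (2.18% of all genes). The potassium channel median was 0.11 without cord replicate 2 at 6 months. The GABA and glycine median was 0.15 without cord replicate 3 at 6 months or at 18 months, and 0.16 without oculomotor replicate 2 at 18 months. The member with the lowest p among the latter was Slc6a11, the GABA transporter GAT-3 of astrocytes, at 562, 607 and 532 and then 487, 594 and 456 in the oculomotor nucleus and 414, 202 and 354 and then 131, 121 and 248 in the cord (interaction 0.82, 0.08 to 1.56). The background potassium channel Kcnk2 went against its list (-0.63). Motor neuron and cholinergic genes were divided, 7 of 14 each way (median 0.026, from -0.044 to 0.045 with 1 array left out), Chat among them at -0.40 (-1.05 to 0.24).

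Myelin genes were positive in 17 of 21, against 47.6% of all named genes (median 0.11, but 0.064 without cord replicate 3 at 6 months and 0.18 without cord replicate 3 at 18 months). Mog, on the outer myelin surface, read 2371, 2452 and 2202 and then 2166, 2353 and 2232 in the oculomotor nucleus and 3884, 4175 and 3636 and then 2846, 2657 and 3397 in the cord (interaction 0.34, 0.045 to 0.64, and 0.17 without the muscle-rich arrays), and did not pass in the cord. Oxidative phosphorylation stayed near 0 as a group (27 of 67 positive, median -0.028, and 0.028 without cord replicate 3 at 18 months), with medians of -0.094 and -0.086 in the 2 tissues. Ribosomal proteins were positive in 3 of 37 (median -0.13). Their median was -0.023 without cord replicate 3 at 18 months, -0.081 without cord replicate 2 at 6 months, and -0.20 to -0.21 without cord replicate 2 at 18 months or cord replicate 1 at 6 months. The list had 1 member, Rps15a, lower at an unadjusted p under 0.05 (-0.60), against 2.89% of all named genes.

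Values for the change from 6 to 30 months, which uses the same 6-month arrays and is therefore given only beside the others, differed by gene group. The interaction at 30 months was -1.33 for Lgals3, -0.67 for Mgst1, -0.77 for Ppih and -0.83 for Gpx3, and 0.65 for Lss, 0.77 for Scd and 0.85 for Pacsin3. For RT1-Bb it was -0.63, for RT1-Db1 -0.23, for RT1-Da 0.64 and for Cd74 0.70, and the class II median was 0.068. The microglial median was 0.042 and the sterol median 0.20. For Rtn4 it was -0.075.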

How the data were processed

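Per the labels and the submitters' processing notes, RNA was hybridised to Affymetrix RA230 arrays and the authors made 1 signal intensity per probe set with Microarray Suite 5.0; the deposited table holds these intensities on a linear scale with no detection calls. The series' design text speaks of 4 replicates per group and the labels give 3, which were followed. Every array already had a 2% trimmed mean of 500.1, so rescaling to 500 changed values by under a thousandth. Values below the pooled 20th percentile (66.4) were raised to it, log2 was taken, 57 manufacturer controls were dropped, and probe sets with a mean log2 signal above the pooled 40th percentile (7.46) were kept, 9482 of 15923. This floor shrinks changes of dim genes.

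Of the 15923 probe sets, 12789 named 1 gene in the platform annotation, 312 several and 2822 were unlisted; 12754 were updated to RefSeq symbols of GRCr8 by Entrez identifier. A mean for each of 6 groups was estimated from the 18 arrays together in limma 3.58.1 (R 4.3.3) (lmFit, contrasts.fit, eBayes with trend; 12 residual degrees of freedom, 18.8 with the prior). Tests were 2-sided with Benjamini-Hochberg adjustment over all probe sets kept. The procedure was tested on simulated data with independent noise of equal spread in all groups. That test cannot check the effect of unequal spread between tissues or of correlated probe sets. The precision is limited by 3 arrays a group, each a pool of 4 animals, and p-values measure the spread between pools.

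Named genes are those past the interaction test or, with fewer than 10, the 15 with the smallest p in each direction (1 probe set per gene), up to 4 per gene list, up to 8 each with opposite and with shared changes, and 7 fixed markers; further list members and genes that passed under an alternative were named after their values were seen. The 41 lists (1288 entries, 1 probe set per gene by highest mean) and the comparison itself were chosen with earlier results of these data known, and counts over them are descriptions. Promoters come from RefSeq.

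The shared replicate numbers were checked for pairing: over 18 same-numbered pairs, deviations from the group means correlated between -0.26 and 0.095 (median 0.029), 0 of them over 0.1. These include pairs of different ages. Between the 2 tissues the values were 0.034, 0.095 and 0.035 at 6 months, and 0.030, -0.059 and -0.036 at 18 months. The numbers were not taken to pair samples, but this check cannot settle whether the same animals gave both tissues. Alternatives covered normalization, floor, filter, variance model, array weights, replicate blocks, muscle and choroid scores, arrays that stand apart and each array left out.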

Additional observations from a re-analysis of the deposited data

How the results depend on the processing

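The count of probe sets with an interaction past the test was 0 with all arrays and in 25 of 29 alternatives. It was 1 (Lgals3) with array quality weights, 1 (Lgals3) in a fit on only the arrays at 6 and 18 months, and 7 without the 2 cord arrays that stand apart. With 1 array left out at a time it lay between 0 and 5; the 5 came without cord replicate 3 at 18 months. The oculomotor count was 0, with 2 under array quality weights. The cord count of 69 was 40 with a replicate block within tissue, and ranged from 15 to 100 with 1 array left out. It was 127 when the 2 cord arrays that stood apart shared a block with replicate 3 of both tissues at 30 months. Those later arrays scored -16.6 (oculomotor) and -14.7 (cord) on the first principal component. With a replicate block common to both tissues the cord count was 51. The interaction count then stayed 0, with a smallest adjusted p of 0.421 in limma. The causes were not tested.

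Muscle genes changed sign: without the 3 muscle-rich cord arrays the interaction was -0.98 for Ckm (0.40 with all arrays), -0.51 for Acta1, -0.15 for a Tpm1 probe set with 0.40 and -0.018 for Tnnc2. With the muscle score as a covariate it was -0.57 for Ckm and -0.011 for Acta1. Ckm ranged from -0.32 to 1.41 with 1 array left out. Of 5522 values for named genes over the alternatives, 5472 kept their direction and side of the threshold. Of 87 counts, 76 stayed at 0 where the count with all arrays was 0, or else within a preset factor of it. Of 1188 list medians, 1135 moved by less than the spread between arrays. With 3 arrays a group, the interval of the interaction, unadjusted for the number of probe sets, had a median half-width of 0.43 log2 units. The adjusted test asked for more: with all arrays even Lgals3, at -2.15, did not pass (adjusted p = 0.20 in limma). Dim genes near the floor have compressed changes.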

Other observations

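Genes that respond to glucocorticoids, the adrenal stress hormones, were lower at 18 months in the oculomotor nucleus and higher in the cord by their medians (-0.16 and 0.19). Of 13 measured, 11 had a negative interaction (median -0.43), against 47.6% positive among all named genes. At an unadjusted p under 0.05, 2 were lower (2.89% of all genes): Cdkn1a, an inhibitor of the cell cycle (-0.60), and Errfi1, a feedback inhibitor of EGF receptors (-0.48). Sgk1, a kinase induced by these hormones, had the lowest value but wide spread, with 854.6, 1859.7 and 2178 and then 872, 1350.4 and 1173 in the oculomotor nucleus and 952, 1879.9 and 1345 and then 2271, 2397 and 1242 in the cord (interaction -0.94, 95% interval -1.95 to 0.072). Without cord replicate 1 at 6 months, 1 of the arrays that stood apart, the list median was -0.22; it was -0.24 without cord replicate 1 at 18 months and -0.25 without oculomotor replicate 3 at 6 months. Immediate early genes, which cells switch on within minutes of a stimulus, were negative in 14 of 16 (median -0.13, and -0.21 without oculomotor replicate 2 at 18 months and -0.20 without oculomotor replicate 1 at 6 months), Fos at -0.58, with 0 at an unadjusted p under 0.05.

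Matrix and meningeal genes were lower at 18 months in the oculomotor nucleus (median -0.14) and near level in the cord (-0.0093). Of 37 measured, 28 had a negative interaction (median -0.20), where 47.6% of all named genes had a positive one. At an unadjusted p under 0.05, 5 were lower (2.89% of all named genes): Aebp1, a collagen-binding protein (-0.76), the meningeal transporters Slc13a4 (-0.66) and Slc22a8 (-0.49), the retinoid-binding Crabp2 (-0.57) and Igfbp2, which binds insulin-like growth factors (-0.57), while 2 collagen chains were higher (2.18%), Col6a1 (0.63) and Col5a1 (0.61). The summed signal of the 44 genes on the array in the oculomotor nucleus was 25089 to 26314 at 6 months and 22938 to 24085 at 18 months, with no overlap, and in the cord 38075 to 49566 and then 39269 to 45248. The median interaction was -0.011 without the 3 muscle-rich cord arrays, -0.073 without cord replicate 1 at 18 months and -0.32 without cord replicate 3 at 6 months.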
